A study of Homo sapiens with 4 samples.

Results

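The expression profile of Hep3B, an established human hepatocellular carcinoma (HCC) line, was compared between cells treated with arsenic trioxide (ATO) and control cells. Hep3B cells given 3 μM ATO for 7 days were set against Hep3B cells given DMSO, the negative control, whose label gives no time. The study asked whether low-dose ATO moves liver cancer stem cells toward differentiation, and it profiled a second HCC line, Huh7, with the same ATO treatment and the same DMSO control. There was 1 profile per condition and line, so 2 of the 4 profiles are from Hep3B. The RNA was read on Affymetrix U133 Plus 2.0 arrays, where several short probes for the same transcript are combined as a probe set. Each of 19775 genes was read from the brightest probe set that names that gene alone, and 12611 of them had a mean intensity over both Hep3B profiles above the median of all probe sets, 16.03. The expression ratio is the intensity with ATO divided by the intensity in the negative control. Genes with a ratio above 1.5 are called higher and genes with a ratio below 0.67 lower, and a gene has little change in Huh7 where its ratio there lies between 25% higher and 20% lower. With these rules 872 of the 12611 genes were past a threshold in Hep3B with little change in Huh7, 468 higher and 404 lower, which is 5.02% and 4.33% of the 9326 genes with little change in Huh7. Since there were no replicates in either condition, the ratios carry no error and no p-value is given.

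Arsenic trioxide binds thiol groups of proteins and is used as a drug in acute promyelocytic leukemia. In liver cells, arsenic is known to free the transcription factor NRF2 from its inhibitor KEAP1, which raises enzymes that make glutathione and NADPH. Unfolded proteins, oxidants and a shortage of amino acids can each start the integrated stress response, in which phosphorylation of the initiation factor eIF2α slows most protein synthesis while the transcription factor ATF4 raises genes for amino acid uptake, amino acid synthesis and tRNA charging. Hep3B is known as a line that makes erythropoietin and many plasma proteins of the liver.

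Hep3B carried the signal of the liver lineage in both conditions. All 10 measured hepatocyte markers were above the median intensity, between 590.3 and 12596 with ATO and between 209.5 and 13938 in the negative control. Of the markers of other cell types, 3 of 5 leukocyte genes, 1 of 4 endothelial genes and 2 of 6 fibroblast genes were above the median. Of these 6 genes, LYZ was past a threshold, with an intensity of 30.3 with ATO and 176 in the control. Over all measured markers of a cell type, the leukocyte genes summed to an intensity of 85.5 in ATO-treated cells and 234 in control cells, and the sums were 35.7 and 35.6 for endothelium and 136 and 156 for fibroblasts. LYZ made up most of the leukocyte difference, and the other leukocyte genes were inside the thresholds. In Huh7, LYZ had 234 with ATO and 411 in the control. Spiked-in poly-A control transcripts had a median log2 ratio of -0.23 in Hep3B, and hybridization controls one of 0.10. The 3' to 5' difference of GAPDH and ACTB, a measure of RNA integrity, differed by 0.01 and 0.02 (log2) between the Hep3B profiles. The part of the leukocyte genes and of the added controls in the results was not tested.

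Over all 19775 genes, 996 were higher in ATO-treated Hep3B cells, which is 5.04%, and 794 were lower, which is 4.02%. Among the 12611 genes above the median, 834 were higher, or 6.61%, and 706 were lower, or 5.60%. Ratios over 2 were found for 235 of them and ratios under 0.5 for 165. Of the 834 higher genes, 143 (17.1%) were also higher in Huh7, 24 (2.88%) were lower there, 468 (56.1%) had little change and 199 lay between. Of the 706 lower genes, 107 (15.2%) were also lower in Huh7, 30 (4.25%) were higher there, 404 (57.2%) had little change and 165 lay between. Among all 12611 genes above the median in Hep3B, 3.61% were higher in Huh7, 3.72% were lower and 9326 genes had little change there. The log2 ratios of genes above the median spread more widely in Hep3B, with a standard deviation of 0.44 across genes, than in Huh7, where it was 0.36. Genes are not replicates, so this spread is a description of these profiles. Turned the other way, 152 genes were higher and 199 lower in Huh7, among 8075 genes above the median in both lines with little change in Hep3B. The same filter on both lines left 399 higher and 324 lower genes in Hep3B, among 8920 genes with little change in Huh7.

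**Figure D1:**
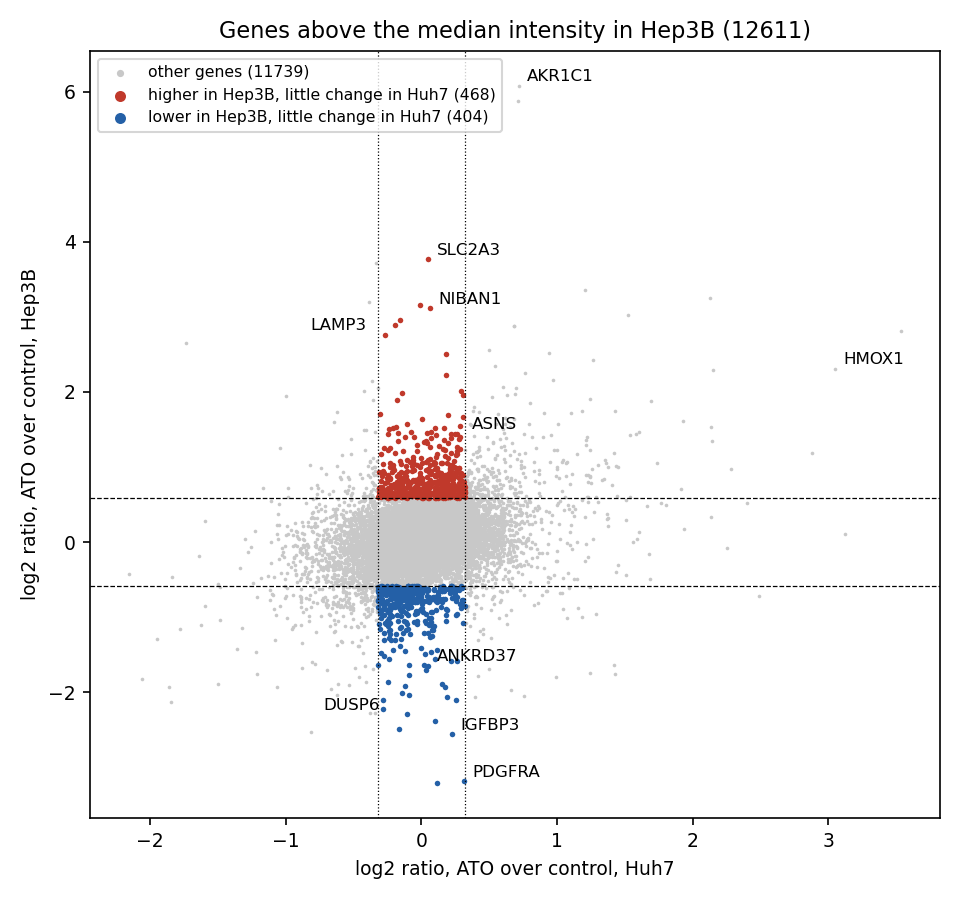
Each point is 1 of the 12611 genes above the median intensity in Hep3B, with its log2 ratio of ATO to control in Huh7 on the x axis and in Hep3B on the y axis. Dashed lines mark ratios of 1.5 and 0.67 in Hep3B and dotted lines the range of little change in Huh7. The 468 red and 404 blue points form a column at the centre of the Huh7 axis, with SLC2A3 at the top and PDGFRA near the bottom.

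Little change in Huh7 has 2 meanings in these data, since a gene can be steady or can be dim there. Of the 872 genes, 399 higher ones and 324 lower ones were above the median in Huh7 too, which was 16.24, out of 8920 genes with little change there. The other 69 higher and 80 lower genes were below that median in Huh7, out of 406 such genes. In Hep3B itself, the negative control was dimmer than the median for 47 of the 468 higher genes, and the ATO profile was for 26 of the 404 lower genes, so the size of those ratios is less certain. The genes nearest to the thresholds were BTN2A2, at 1.5004, just inside the upper one, and VEZF1, at 0.669, just inside the lower one, whereas LINC02615, at 1.4998, and SMC5, at 0.671, were just outside.

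Among the genes that were higher in Hep3B with little change in Huh7, the largest ratios belonged to a glucose transporter, cytoskeletal proteins, membrane proteins seen by immune cells and a marker of lysosomes. SLC2A3, the glucose transporter GLUT3, had an intensity of 122 with ATO and 8.96 in the control in Hep3B, a ratio of 13.7, and stood at 3477 and 3357 in Huh7. Its second-brightest probe set gave a ratio of 2.54 in Hep3B. Huh7 thus held this gene far above the median in both conditions, whereas the Hep3B control was below it. ACTA1, skeletal muscle actin, was at 77.9 in ATO-treated cells and 8.75 in control cells, and in Huh7 at 6.85 and 6.90. NIBAN1, a protein induced by cell stress, was at 31.8 with ATO and 3.67 in the control. Both genes were dimmer than the median in Huh7. NCR3LG1, a surface ligand of the natural killer cell receptor NKp30, was at 160.5 with ATO and 20.6 in the control, a ratio of 7.77, and at 24.9 and 27.8 in Huh7. LAMP3, a membrane protein of lysosomes, was at 132 in ATO-treated cells and 19.5 in control cells, a ratio of 6.79, while Huh7 had 101 and 121. With ATO the Hep3B level of LAMP3 thus came to the level that the same probe set showed in Huh7.

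Others of the 20 highest genes encode secreted proteins. EFEMP1, the matrix protein fibulin-3, had an intensity of 119 with ATO and 21.1 in the control and FSTL1, a secreted follistatin-like protein, one of 101 with ATO and 27.0 in the control. IGFBP7, a secreted binding protein of insulin-like growth factors, was bright in both lines, at 1881 in ATO-treated cells and 642 in control cells in Hep3B, a ratio of 2.93, and at 1902 and 1559 in Huh7. Its second probe set had a ratio of 1.46 in Hep3B, just under the threshold. CER1, an antagonist of Nodal and BMP signals, was at 177 with ATO and 54.0 in the control, and TIMP4, an inhibitor of matrix proteases, at 44.0 with ATO and 14.8 in the control. Among cytoskeletal genes, the microtubule-associated proteins MAP2, with a ratio of 4.05, and MAP1B, with 3.97, and the intermediate filament peripherin, PRPH, with 3.16, are best known from neurons. MAP2 had 148 in ATO-treated cells and 36.5 in control cells in Hep3B and 9.03 and 7.37 in Huh7. PDIA2, a protein disulfide isomerase, had a ratio of 4.69, but its second probe set gave 1.06. The other members of the 20 highest were VSIG1, PARP14, KCNJ8, FAM221A, which is uncertain because its probe set can bind related transcripts, DPY19L3-DT and WARS1, with ratios between 2.88 and 7.40.

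Among the genes that were lower in Hep3B with little change in Huh7, the smallest ratio was that of CNTN3, a neural adhesion molecule, at 8.86 with ATO and 81.8 in the control, a ratio of 0.108. PDGFRA, a receptor of platelet-derived growth factor, had an intensity of 5.35 with ATO and 48.5 in the control, a ratio of 0.110, and was dim in Huh7 at 4.46 and 3.60. IGFBP3, the main carrier of insulin-like growth factors in plasma, had an intensity of 153 in ATO-treated cells and 903 in control cells in Hep3B, a ratio of 0.169, and was bright in Huh7 at 5326 and 4561. The second probe set of IGFBP3 gave 0.195 in Hep3B. IGFBP3 and IGFBP7 thus stood on opposite sides in Hep3B, and both were bright and near the control in Huh7. DUSP6, a phosphatase that switches off ERK, was at 178 with ATO and 872 in the control, a ratio of 0.204 that its second probe set gave as 0.284, and at 244 and 264 in Huh7. TGFBR3, the TGF-beta co-receptor betaglycan, had 11.2 with ATO and 40.6 in the control, and 1237 and 1465 in Huh7.

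Further receptors, matrix genes and plasma proteins were among the 20 lowest. PRLR, the prolactin receptor, had an intensity of 33.1 in ATO-treated cells and 126 in control cells. CCR6, the receptor of the chemokine CCL20, had 9.53 with ATO and 41.1 in the control, and CCL20 itself had a ratio of 0.502 in Hep3B. SERPINA7, the plasma carrier of thyroid hormone, had 65.4 with ATO and 274 in the control and was dim in Huh7. The matrix genes COL2A1 and NID2 had ratios of 0.247 and 0.243. ACSL4, which activates polyunsaturated fatty acids and is known for its part in ferroptosis, was at 46.1 in ATO-treated cells and 158 in control cells, a ratio of 0.292, with 0.507 from its second probe set. EPO, the hormone erythropoietin, had 19.3 with ATO and 59.9 in the control in Hep3B and 13.9 and 13.6 in Huh7. A second EPO probe set gave 0.904, so the size of this ratio rests on 1 probe set. The tumor suppressor MCC was in the same position, with 0.307 and 0.893. The other members were CADPS, UGT3A1, SESN3, RASSF8, PLD5, FRRS1L and ANKRD37, with ratios between 0.178 and 0.320.

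**Figure D2:**
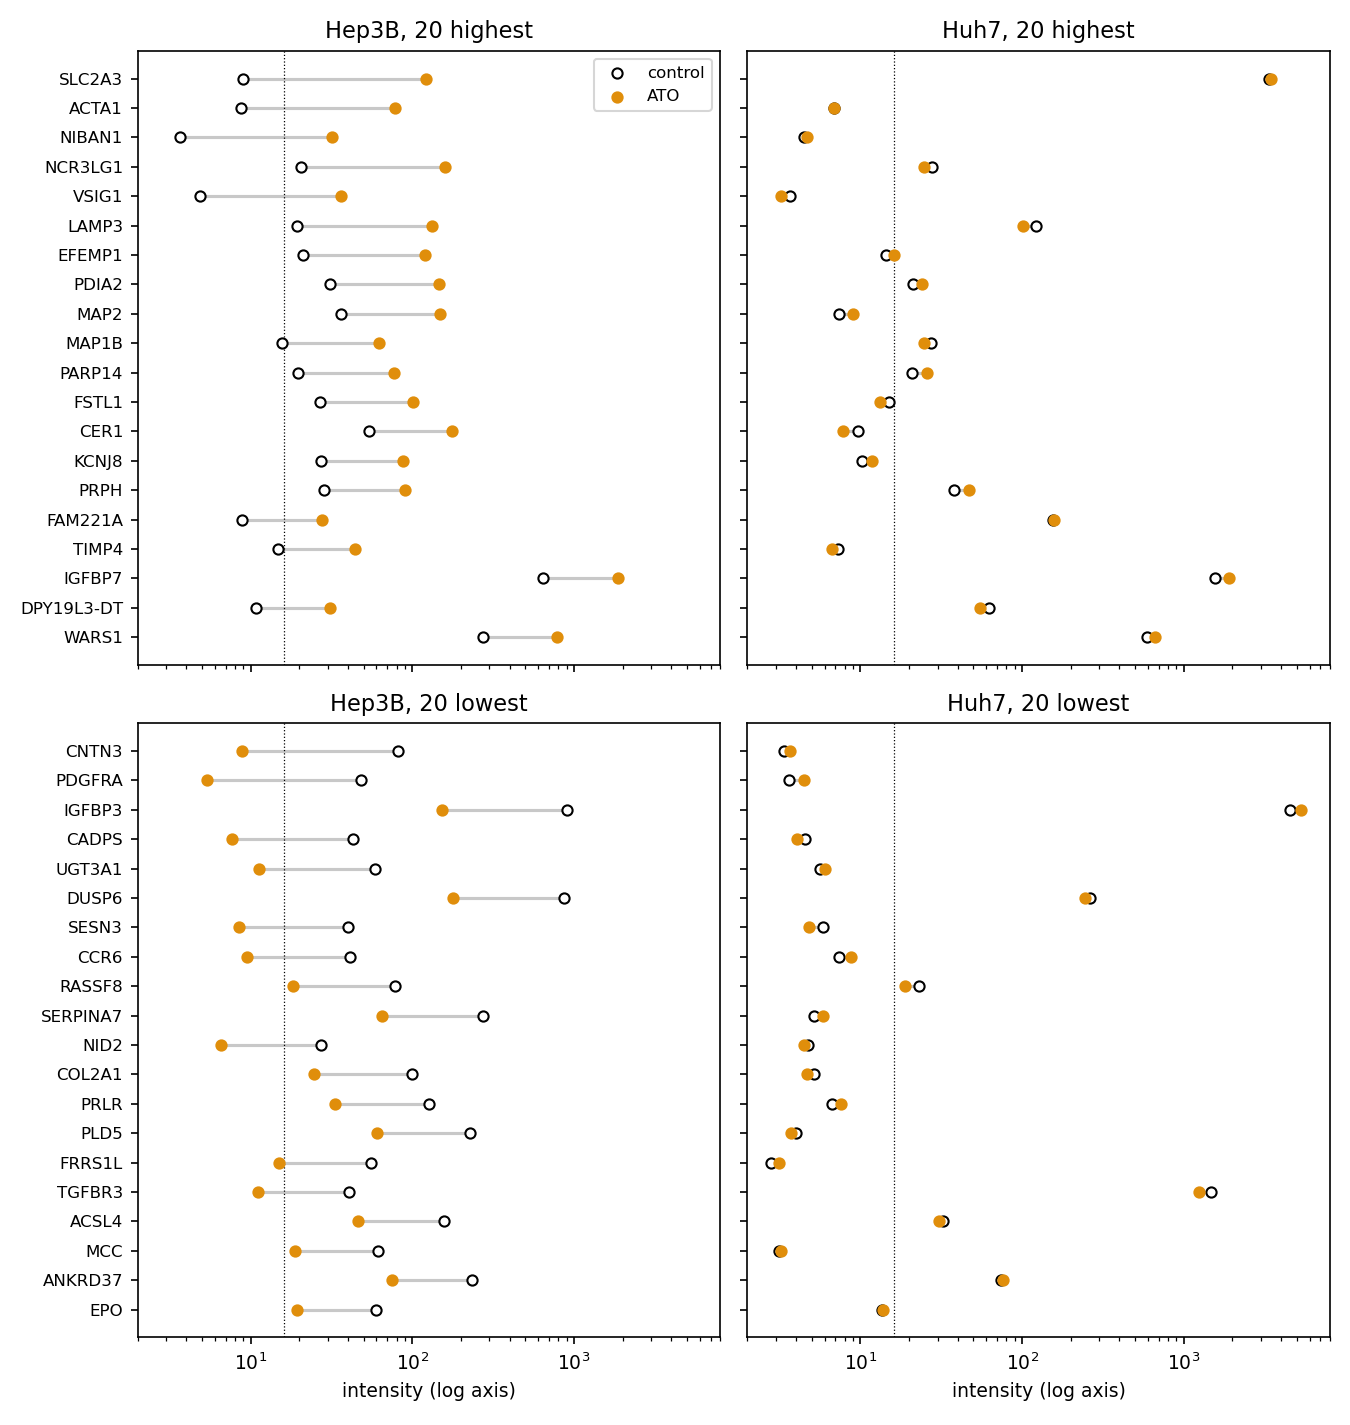
Intensity on a log axis in the negative control (open circles) and with ATO (filled circles) for the 20 highest and 20 lowest genes among those past a threshold in Hep3B with little change in Huh7, with Hep3B on the left and Huh7 on the right. The dotted line is the median of all probe sets in that line. In Hep3B the negative control of 8 of the 20 highest genes and the ATO profile of 9 of the 20 lowest genes lie left of it, and in Huh7 the paired circles nearly coincide.

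A second probe set of the same gene is the one check of a ratio that a single pair of profiles offers. Of the 468 higher genes with little change in Huh7, 189 had a second-brightest probe set above the median, and 157 of these, or 83.1%, also had a ratio above 1. It was past 1.5 for 62 of them, or 32.8%, and the median of the second ratios was 1.33. Of the 404 lower genes, 206 had such a probe set, 171 of them, or 83.0%, were below 1, 74, or 35.9%, were below 0.67, and the median was 0.760. Over all 5934 second probe sets above the median, 52.0% were above 1, 6.25% above 1.5 and 6.24% below 0.67. The second probe sets thus lay mostly on the same side with smaller ratios. Probe sets of a gene share the RNA, so they are not replicates of the treatment.

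Genes of the integrated stress response were higher in Hep3B as a group. Of the 20 measured members, all above the median, 14 were higher and none was lower, where 6.61% and 5.60% of genes above the median were past these thresholds. Their median log2 ratio was 1.07 in Hep3B, against 0.04 over all genes above the median, and 0.41 in Huh7, where 7 were higher. In Huh7, 3.61% of the genes above the median in Hep3B were higher and 3.72% lower. Among the enzymes of the response, ASNS, which makes asparagine, had an intensity of 1526 with ATO and 561 in the control, a ratio of 2.72, and 1073 and 904 in Huh7. CHAC1, which breaks down glutathione, had 417 in ATO-treated cells and 109 in control cells, a ratio of 3.83, and CTH, which makes cysteine, a ratio of 2.29. The secreted members STC2, a stress-induced glycoprotein, and FGF21, a metabolic hormone of the liver, had ratios of 3.91 and 2.0. Among the transcription factors, ATF3, CEBPB and ATF5 had ratios of 2.34, 2.36 and 1.95, with 1.22 from the second ATF3 probe set, inside the thresholds, DDIT3, which encodes CHOP, had 1.70, and ATF4, whose protein is mainly controlled by translation, had 1.20, inside the thresholds. TRIB3, a pseudokinase that restrains ATF4 and AKT, was at 1438 with ATO and 525 in the control, a ratio of 2.74. EIF4EBP1, a brake on cap-dependent translation, had a ratio of 2.2, NUPR1, a stress-induced nuclear protein, 2.46, and VLDLR, a lipoprotein receptor, 2.60.

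Of the 14 higher genes of the response, 4 had little change in Huh7, namely ASNS, VLDLR, ATF5 and SESN2. ATF5 was at 223 with ATO and 115 in the control in Hep3B and at 90.5 and 88.3 in Huh7. SESN2, a sestrin that senses leucine, was at 194 in ATO-treated cells and 109 in control cells and at 171 and 174 in Huh7. SESN3, another sestrin, named above among the lower genes, had a ratio of 0.214 in Hep3B. NUPR1 was higher in both lines, with a ratio of 2.33 in Huh7. With 1 profile per condition in each line, the difference between the lines could not be tested.

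The composite element TGATGNAA, which joins an ATF4 part to a C/EBP part, was searched on both strands of the 250 bases before each transcription start in the RefSeq promoters of GRCh38.p14. It was found in 870 of 27305 promoters, or 3.19%, and in 1.45% of those of genes above the median in Hep3B. Of the 20 members of the list, 18 had a promoter there and 4 of them held the element, ATF3, CHAC1, ASNS and FGF21, which were all among the 12 higher genes with a promoter. Among the synthetases it was in 2 of 14 promoters and in 0 of the 6 higher genes, and among the amino acid transporters in 1 of 17 and 0 of 7. The promoters of ASNS and CHAC1 are printed because both genes are well known ATF4 targets with large ratios here. The capitals mark the match, which lies on the minus strand of the CHAC1 sequence. A match is a description of these letters only. ASNS spans chr7:97872409-97872658 on the minus strand and CHAC1 chr15:40953221-40953470 on the plus strand, both written from 5' to 3'.
ASNS: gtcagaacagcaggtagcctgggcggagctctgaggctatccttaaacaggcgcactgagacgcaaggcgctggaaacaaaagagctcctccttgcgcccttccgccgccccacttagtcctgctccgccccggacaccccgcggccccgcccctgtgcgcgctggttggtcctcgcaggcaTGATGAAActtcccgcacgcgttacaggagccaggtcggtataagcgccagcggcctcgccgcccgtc
CHAC1: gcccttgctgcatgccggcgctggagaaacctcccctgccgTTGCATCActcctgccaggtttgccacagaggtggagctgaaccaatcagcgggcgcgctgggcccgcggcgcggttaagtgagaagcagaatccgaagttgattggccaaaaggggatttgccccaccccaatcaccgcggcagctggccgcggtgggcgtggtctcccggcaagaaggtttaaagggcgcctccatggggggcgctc

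Genes that charge tRNA and bring amino acids into the cell also had many higher members. Of 17 aminoacyl-tRNA synthetases, all above the median, 7 were higher and none was lower, and 16 had a ratio above 1. All 7 had little change in Huh7, where no synthetase was past a threshold. The share of higher ones was 41.2%, against 6.61% of all genes above the median, and 4 of 17 were higher with the probe sets of a gene averaged. The median log2 ratio was 0.46 in Hep3B and 0.16 in Huh7. WARS1, for tryptophan, had an intensity of 784 with ATO and 273 in the control, a ratio of 2.88, with 2.57 from its second probe set, and 659.8 and 589 in Huh7. WARS1 is also known as an interferon-induced gene. YARS1, SARS1, GARS1 and CARS1 had ratios of 1.91, 1.86, 1.86 and 1.81, and GARS1, the brightest of these readings, was at 4944 with ATO and 2654 in the control. The phenylalanine enzyme subunits FARSB and FARSA had 1.65 and 1.51. The second probe sets of FARSA, YARS1 and SARS1 gave 1.39, 1.35 and 1.08, inside the thresholds. LARS1, for leucine, was the 1 synthetase below 1, at 0.944.

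Of 22 amino acid transporters above the median, 8 were higher, or 36.4%, and 2 lower, or 9.09%. The shares over all genes above the median were 6.61% and 5.60%. SLC7A11, which imports cystine for glutathione synthesis, had 479 in ATO-treated cells and 107 in control cells, a ratio of 4.48 in Hep3B and 1.96 in Huh7. Its heavy chain partner SLC3A2 had a ratio of 2.62, and SLC7A5, which shares that partner and carries large neutral amino acids, 3.36. SLC7A7, SLC1A5, SLC1A4 and SLC7A6, carriers of basic and neutral amino acids, had ratios of 2.71, 2.12, 1.91 and 1.83, and had little change in Huh7. SLC1A5, a glutamine carrier, was at 218 with ATO and 103 in the control in Hep3B and at 151 and 128 in Huh7. SLC6A14, with a ratio of 0.240, and SLC38A4, with 0.443, were the lower ones. SLC1A4 and SLC38A4 came to log2 ratios of -0.08 and 0.29, on the other side of 0, when probe sets ending in _x_at or _s_at were left out. Of 12 serine and one-carbon enzymes above the median, PHGDH, the first step of serine synthesis, had a ratio of 2.41, and the mitochondrial folate enzymes MTHFD2 and SHMT2 had 1.91 and 1.51. PSPH, the last step of serine synthesis, was lower at 0.629.

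**Figure D3:**
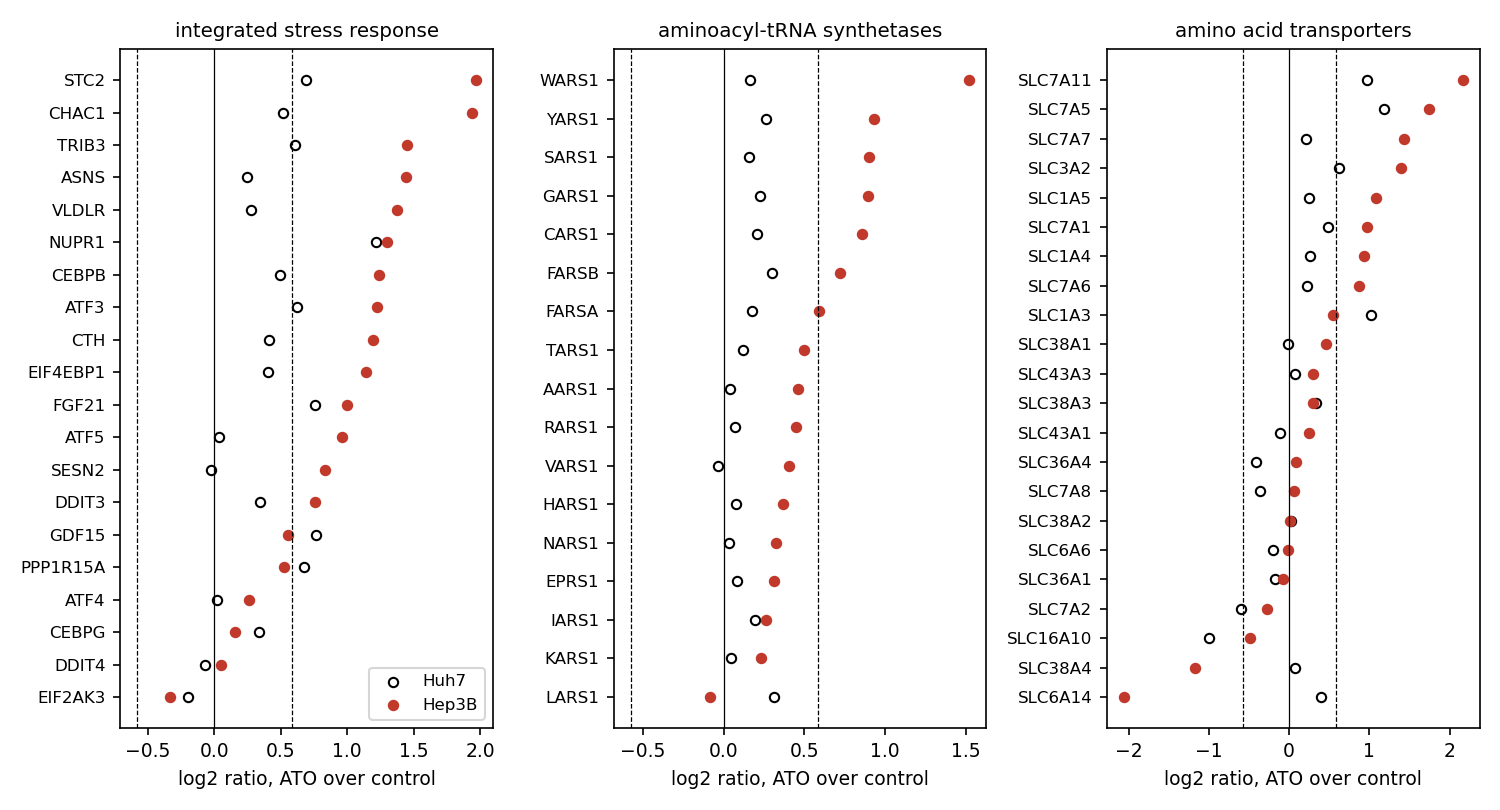
Log2 ratios, ATO to control, of every member above the median intensity of 3 gene lists, with Hep3B filled and Huh7 open, 1 point per gene and line. Dashed lines mark ratios of 1.5 and 0.67. In Hep3B 14 of 20 stress response genes and 7 of 17 synthetases lie past the upper line, and in Huh7 7 and 0 do.

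Interferon-stimulated genes had many higher members in Hep3B. Of 22 members above the median, 10 were higher in Hep3B, or 45.5% against 6.61% of all genes above the median, and none was lower. Of the 10, 8 had little change in Huh7, where 2 of the 22 were higher, or 9.09% against 3.61%. The median log2 ratio was 0.51 in Hep3B and 0.08 in Huh7, and another 17 measured members were dimmer than the median. TAP1, which carries peptides to HLA class I, was at 76.2 with ATO and 32.1 in the control, and in Huh7 at 113 and 92.8. ISG15, a ubiquitin-like protein, was at 356 in ATO-treated cells and 210.2 in control cells, a ratio of 1.69, and at 509 and 492 in Huh7. UBE2L6, the conjugating enzyme of ISG15, had a ratio of 2.26, although it was also higher in Huh7, at 1.65. The antiviral nuclease ISG20 had 1.99, with 2.28 from its second probe set, the 2'-5'-oligoadenylate synthetase OAS3 1.8 and the antiviral GTPase MX1 2.08, the last one over a control dimmer than the median. PARP9 and PARP14, ADP-ribosyltransferase family proteins of the interferon response, had ratios of 1.92 and 3.89, and the second probe set of PARP9 gave 1.5. IRF9, the DNA-binding part of the factor ISGF3, was at 1.504, just past the threshold.

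CXCL10, the best known chemokine of the interferon response, stood on the other side. It had 29.9 with ATO and 145 in the control in Hep3B, a ratio of 0.206, and was dim in Huh7. Of 13 HLA genes above the median, HLA-B and TAPBP had ratios of 1.56 and 1.67 with little change in Huh7, but their second probe sets gave 0.986 and 0.923. HLA-B is read only by probe sets that can bind related transcripts and is uncertain.

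The interferon element GAAANNGAAA was found on either strand in 839 of the 27305 RefSeq promoters, or 3.07%, and in 2.04% of those of genes above the median in Hep3B. Of the 16 list members above the median with a promoter, 10 held it, and of the 9 higher ones it was in ISG15, ISG20, OAS3 and TAP1. The ISG15 promoter, chr1:1013247-1013496 on the plus strand of GRCh38.p14, is printed since it holds 2 overlapping matches, marked by 1 run of capitals.
ISG15: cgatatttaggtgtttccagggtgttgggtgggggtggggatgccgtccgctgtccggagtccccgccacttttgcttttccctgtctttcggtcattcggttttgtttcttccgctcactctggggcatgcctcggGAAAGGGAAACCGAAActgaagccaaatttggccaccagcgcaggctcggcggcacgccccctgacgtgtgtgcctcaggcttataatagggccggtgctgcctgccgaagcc

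Detoxifying genes had many higher members in both lines, and a few of them in Hep3B with little change in Huh7. Of 25 NRF2 targets above the median, 13 were higher in Hep3B, or 52% against 6.61% of all genes above the median, and none was lower. In Huh7 14 were higher, and the median log2 ratios were 0.67 in Hep3B and 0.65 in Huh7. EPHX1, an epoxide hydrolase, and TKT, of the pentose phosphate pathway, were the higher ones with little change in Huh7. EPHX1 was at 79.5 with ATO and 38.2 in the control in Hep3B and at 34.8 and 34.7 in Huh7, and TKT at 899.6 in ATO-treated cells and 484 in control cells, a ratio of 1.86, and at 1260.0 and 1017. The aldo-keto reductases AKR1C1 and AKR1C2, which reduce steroids and aldehydes, were far dimmer in the Hep3B control than in the other 3 profiles. AKR1C1 had 5089 with ATO and 75.3 in the control in Hep3B, and 6957 and 4228 in Huh7. AKR1C2 had 2045 with ATO and 34.8 in the control, and 4054 and 2469 in Huh7, and AKR1C3 had 61.6 in ATO-treated cells and 12.1 in control cells in Hep3B. These paralogs are near copies of each other and share probe sequence, so the split between them is uncertain.

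ABC transporters, which pump drugs, lipids and conjugates out of cells, had 6 higher and no lower members among 18 above the median in Hep3B. The share of higher ones was 33.3%, against 6.61% of all genes above the median. The median log2 ratio was 0.45 in Hep3B and 0.01 in Huh7. ABCG2, a drug pump that is also a marker of stem-like cells, was at 65.6 with ATO and 25.7 in the control, a ratio of 2.55, and at 328 and 319.8 in Huh7. ABCB1, P-glycoprotein, had 178 with ATO and 107 in the control, a ratio of 1.66, with 1.37 from its second probe set, and was dim in Huh7. ABCC4, a pump for nucleotides and drugs, had 1.82, with 2.16 from its second probe set, ABCB6, a porphyrin transporter, 1.84, with 1.03 from its second probe set, and the lipid transporter ABCA3 1.58. ABCC2, an exporter of conjugates, was higher in both lines, at 1.64 and 1.61. Of 12 metallothioneins and zinc transporters, 7 were higher in Hep3B, or 58.3%, and 5 in Huh7. SLC30A1, which exports zinc, had a ratio of 1.75 in Hep3B and 1.11 in Huh7. With probe sets ending in _x_at or _s_at left out, 6 members of this list remained and their median log2 ratio was -0.23. With all 12 members kept and the probe sets of a gene averaged, the median was 0.35. The direction of the list thus depends on which members and probe sets are read, and these were not told apart.

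Calcium-binding and cytoskeletal genes also had higher members. Of 20 S100 proteins and annexins above the median, 8 were higher, or 40% against 6.61% of all genes above the median, and none was lower. Of the 8, 2 had little change in Huh7. In Huh7, 6 of the 20 were higher and 2 lower, against 3.61% and 3.72% of genes above the median in Hep3B. S100A11 was at 617 in ATO-treated cells and 186 in control cells, and in Huh7 it was dim. S100A6 had a ratio of 1.96 in Hep3B with 1.07 in Huh7, and ANXA3 1.63 with 3.77. Of 17 tubulins and microtubule-associated genes, 6 were higher, or 35.3%, among them TUBA4A at 1.69, TUBB6 at 2.15 and TUBA1A at 2.04, whose ratio in Huh7 was 0.567. Of 23 actin-binding and contractile genes, 4 were higher, or 17.4%, and 1 was lower, or 4.35% against 5.60% of all genes above the median. TAGLN, a smooth muscle actin-binding protein, had 625 with ATO and 47.6 in the control, a ratio of 13.1 that its second probe set gave as 14.5, and 25.5 and 32.1 in Huh7. MYL9, the myosin light chain of contractile cells, had a ratio of 3.37, with 2.37 from its second probe set, TPM1, a tropomyosin, 2.17 and MSN, moesin, 1.89. CALD1, caldesmon, was the lower one at 0.608. UCHL1, a deubiquitinating enzyme known from neurons, had 1344 with ATO and 147 in the control in Hep3B and 13.3 and 17.4 in Huh7.

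**Figure D4:**
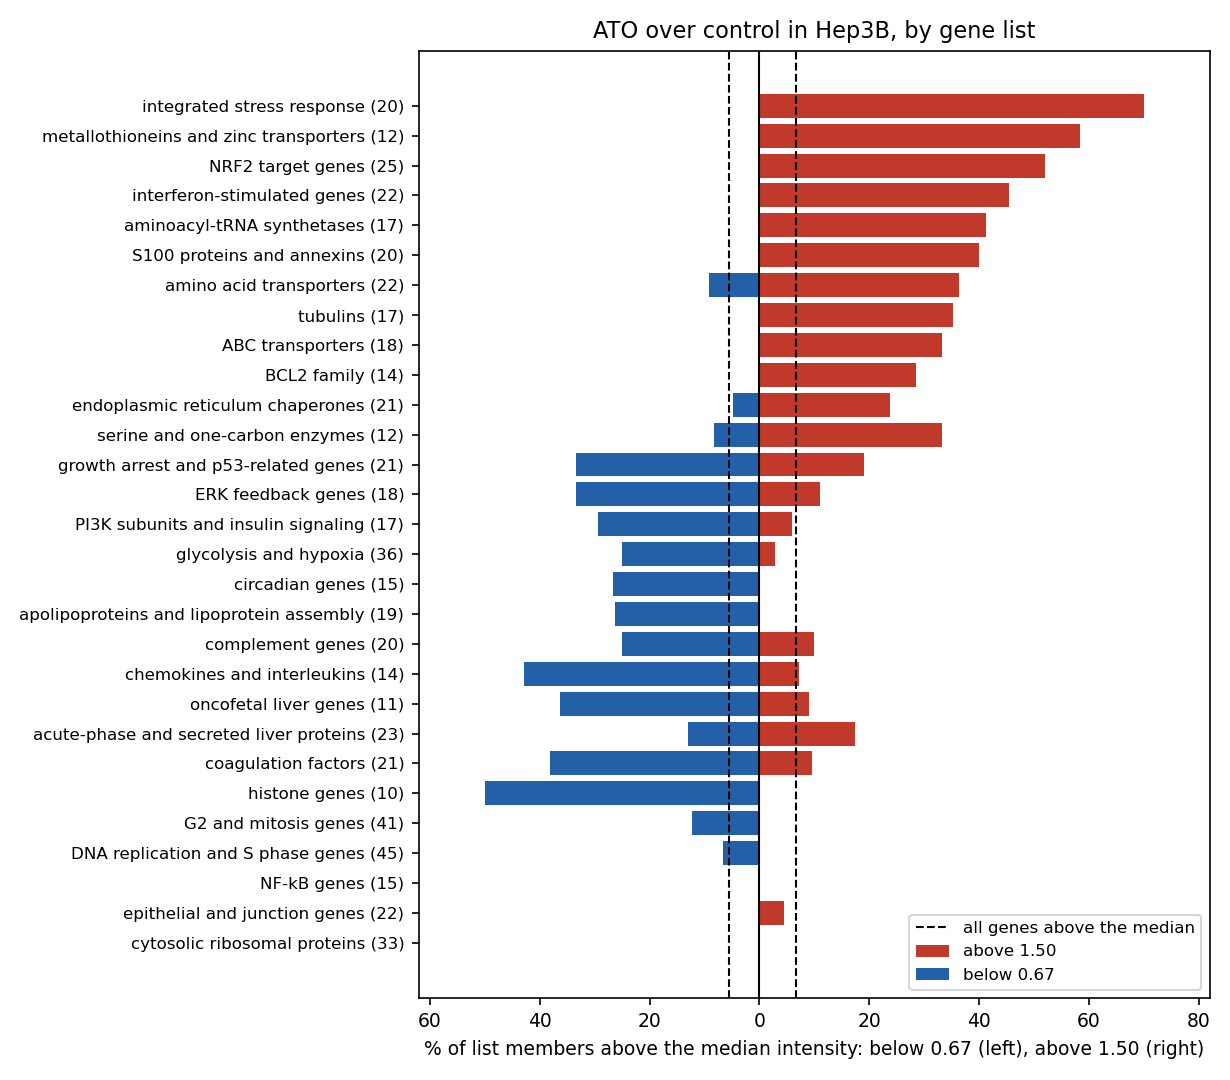
Percentage of the members above the median intensity that were higher (red, right) or lower (blue, left) with ATO in Hep3B, for gene lists described in the text, with the number of such members in brackets. Dashed lines mark the 6.61% and 5.60% of all genes above the median. Among the lists plotted, the stress response reaches furthest to the right, with 14 of 20 members, and histone genes furthest to the left, with 5 of 10.

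Genes of the hypoxia response were lower in Hep3B in larger number than higher. Of 36 genes of glycolysis and hypoxia above the median, 9 were lower, or 25% against 5.60% of all genes above the median, and SLC2A3 was higher. The median log2 ratio was -0.25 in Hep3B and -0.13 in Huh7. In Huh7, 5 of the 36 were lower and 2 higher, against 3.72% and 3.61% of genes above the median in Hep3B. ANKRD37, a direct target of the hypoxia-inducible factor HIF, was at 75 in ATO-treated cells and 234 in control cells in Hep3B and at 76.3 and 73.7 in Huh7. EGLN3, an oxygen-sensing hydroxylase that HIF induces, was at 30.7 with ATO and 69.4 in the control, a ratio of 0.442, with 0.325 from its second probe set. VEGFA, the main growth factor of vessels, was at 853 with ATO and 1561 in the control, a ratio of 0.547, and at 587 and 585 in Huh7, although its second probe set in Hep3B gave 0.830. NDRG1, a stress-induced gene under HIF control, had a ratio of 0.553, the peptide hormone ADM 0.609 and the collagen prolyl hydroxylase P4HA1 0.663, the last one with a log2 ratio of 0.40 when probe sets ending in _x_at or _s_at were left out. MIR210HG is the host of a hypoxia-induced microRNA, PFKFB4 drives glycolysis and PDK1 inhibits pyruvate dehydrogenase. Their ratios were 0.372, 0.509 and 0.598 in Hep3B, and 0.389, 0.475 and 0.690 in Huh7. EPO, described above, belongs to the same response.

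The core of the hypoxia element, ACGTG, is short and was present on either strand in 5101 of the 27305 promoters, or 18.7%, and in 23.1% of those of genes above the median in Hep3B. It was in 16 of the 32 list members with a promoter, and in 3 of the 7 lower ones, ANKRD37, MIR210HG and P4HA1. The ANKRD37 promoter, chr4:185396591-185396840 on the plus strand of GRCh38.p14, is printed because it holds 3 matches, of which the palindromic one counts on both strands. The capitals mark the matches.
ANKRD37: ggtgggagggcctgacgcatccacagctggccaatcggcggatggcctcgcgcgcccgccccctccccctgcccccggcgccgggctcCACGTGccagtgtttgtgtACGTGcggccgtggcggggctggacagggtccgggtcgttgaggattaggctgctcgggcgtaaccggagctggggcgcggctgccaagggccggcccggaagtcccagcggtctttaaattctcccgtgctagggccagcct

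Growth factor signaling genes stood on both sides, with more lower than higher members among ERK feedback and PI3K genes. Of 18 genes that ERK induces as feedback, 6 were lower in Hep3B, or 33.3% against 5.60% of all genes above the median. Of the 18, 2 were higher, or 11.1% against 6.61%. In Huh7 6 were higher and none was lower, and the median log2 ratios were -0.21 in Hep3B and 0.33 in Huh7. With the probe sets of a gene averaged, 2 were lower in Hep3B and 1 higher, and with an offset of 16, 3 were lower. Beside DUSP6, the lower ones were SPRED1 at 0.609, DUSP1 at 0.611, PHLDA1 at 0.639, SPRY1 at 0.651 and SPRY2 at 0.664. DUSP1, a phosphatase of p38 and JNK, had a ratio of 1.05 from its second probe set in Hep3B, and 1.69 in Huh7. The second probe sets of PHLDA1 and SPRY1 gave 0.736 and 0.714. The transcription factor ETV5 and the inhibitor SPRY4 were higher in both lines, at 1.81 and 2.0 in Hep3B. Of 17 PI3K and insulin signaling genes above the median, 5 were lower, or 29.4%, and 1 was higher, or 5.88%. Their median log2 ratio was 0.05, and 10 of the 17 had a ratio above 1. Of 14 growth factors of the EGF, FGF and VEGF families, 2 were higher and 2 lower, or 14.3% each. Of 18 receptor tyrosine kinases, 1 was higher, or 5.56%, and 2 were lower, or 11.1%. PIK3R1, the regulatory subunit of PI3K, was at 114 in ATO-treated cells and 415 in control cells, a ratio of 0.275 that its second probe set gave as 0.473. The class II kinases PIK3C2A and PIK3C2B had ratios of 0.640, with 0.784 from its second probe set, and 0.656 and PIK3CD, a class I catalytic subunit, 1.54. IGFBP1, a binding protein that insulin represses, was at 79.7 with ATO and 192 in the control. Of the growth factors, the ERBB ligand EREG was at 100.3 with ATO and 39.3 in the control, a ratio of 2.56, and at 247 and 219.6 in Huh7, and PGF, a relative of VEGF, had 0.645, with 0.908 from its second probe set. AXL, a receptor tyrosine kinase, was at 57.9 in ATO-treated cells and 7.85 in control cells in Hep3B and far brighter in Huh7, at 1920.2 and 1198, but its second probe set in Hep3B gave 1.16.

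Coagulation genes were more often lower than higher in Hep3B, and other plasma proteins of hepatocytes stood on both sides. Of 21 coagulation genes above the median, 8 were lower, or 38.1% against 5.60% of all genes above the median. Of the 21, 2 were higher, or 9.52% against 6.61%, and the median log2 ratios were -0.41 in Hep3B and 0.02 in Huh7. In Huh7, 4 of the 21 were lower and 3 higher, against 3.72% and 3.61% of genes above the median in Hep3B. F2, prothrombin, was at 256 with ATO and 517 in the control, a ratio of 0.495, and at 317 and 301 in Huh7. F5, a cofactor of prothrombin activation, and KNG1, kininogen, both had a ratio of 0.517. SERPING1, the C1 inhibitor, had 87.8 with ATO and 228 in the control, and 511 and 569 in Huh7. SERPINC1, antithrombin, was higher at 50.8 in ATO-treated cells and 16.3 in control cells, and F11 had a ratio of 1.91, which came to a log2 of -0.13 with probe sets ending in _x_at or _s_at left out. The fibrinogen chains are counted with 23 acute-phase and secreted liver proteins, of which 4 were higher and 3 lower, with a median log2 ratio of -0.02. FGA had 1403 with ATO and 461 in the control, a ratio of 3.04, with 3.29 from its second probe set, and 0.639 in Huh7. FGB had 2.82 in Hep3B and 0.752 in Huh7, and FGG 1.41 and 0.656. CP, ceruloplasmin, was at 212 with ATO and 625 in the control, a ratio of 0.339 that its second probe set gave as 0.329, and at 606 and 565 in Huh7.

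Complement, lipoprotein and chemokine genes also had more lower than higher members. Of 20 complement genes 5 were lower in Hep3B, or 25%, and 2 higher, or 10%, and 6 were higher in Huh7. The shares over all genes above the median in Hep3B were 5.60% lower and 6.61% higher. CFB, a factor of the alternative pathway, was at 58.9 in ATO-treated cells and 163 in control cells, although its second probe set gave a ratio of 0.848, and CFI, which inactivates C3b, at 474 with ATO and 843 in the control, against 102 and 57.6 in Huh7. Of 19 apolipoproteins and assembly genes, 5 were lower, or 26.3%, and none was higher, and 16 had a ratio below 1. In Huh7, 5 of the 19 were lower and 3 higher, against 3.72% and 3.61% of genes above the median in Hep3B. APOA1, the main protein of high-density lipoprotein, was at 2524 with ATO and 4239.9 in the control, a ratio of 0.595 with 0.608 from its second probe set. ANGPTL8, which restrains lipoprotein lipase, had a ratio of 0.443 and APOC3 0.547, against 2.22 in Huh7. Of 14 chemokines and interleukins, 6 were lower, or 42.9%, and IL32 was higher. CCL20 was bright in both lines, at 1833 in ATO-treated cells and 3649.6 in control cells in Hep3B and at 1690.1 and 742 in Huh7. CXCL1, which attracts neutrophils, had ratios of 0.473 in Hep3B and 0.736 in Huh7, and CXCL12, which draws in stem and immune cells, 0.364 and 0.430. In bulk RNA, fewer cells that express a gene and less RNA per cell cannot be told apart, which holds for each of these groups.

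In the list of oncofetal liver genes, which also holds CGA and SPINK1, more were lower than higher in Hep3B. Of 11 above the median, 4 were lower, or 36.4% against 5.60% of all genes above the median, and 1 was higher, with a median log2 ratio of -0.26, and 2 were lower with the probe sets of a gene averaged. AFP, the fetal albumin, was at 1646 with ATO and 3566 in the control, GPC3, a glypican of HCC, at 2397 with ATO and 3729.7 in the control, a ratio of 0.643 with 0.718 from its second probe set, and DLK1, a surface marker of liver progenitors, at 1844 in ATO-treated cells and 3923 in control cells. With probe sets ending in _x_at or _s_at left out, DLK1 had a log2 ratio of 0.43, so its direction depends on the probe set. CGA, the shared subunit of glycoprotein hormones, had a ratio of 0.230. SPINK1, a protease inhibitor known from HCC, was the higher one, at 1539 with ATO and 151 in the control, a ratio of 10.2 and was dim in Huh7. Of 20 stem cell markers above the median, 3 were higher, or 15% against 6.61%, and 4 lower, or 20% against 5.60%, with a median log2 ratio of -0.25. ALDH1A1, an aldehyde dehydrogenase, was at 4398 with ATO and 2543 in the control, a ratio of 1.73, and KLF4, a reprogramming factor, at 40.8 in ATO-treated cells and 15.2 in control cells, which was higher in Huh7 too. ANPEP, which encodes CD13, had a ratio of 0.430 that came to a log2 of 0.01 without the probe sets named above. CD47, the signal that holds off macrophages, and SOX4 had ratios of 0.652 and 0.663, with 0.824 from the second SOX4 probe set. Among liver transcription factors, 4 of 23 were lower, or 17.4%, and CEBPB was higher. In Huh7, 5 of the 23 were lower and 1 higher, against 3.72% and 3.61% of genes above the median in Hep3B. NR2F1, an orphan nuclear receptor, was at 135 with ATO and 335 in the control, and PROX1, a regulator of liver development, had ratios of 0.547 in Hep3B and 0.539 in Huh7.

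Most genes of G2 and mitosis had ratios slightly below 1 in Hep3B. Of 41 genes of G2 and mitosis, all above the median, 37 had a ratio below 1 in Hep3B. Of the 41, 5 were below 0.67, or 12.2% against 5.60% of all genes above the median. The median log2 ratios were -0.29 in Hep3B and 0.29 in Huh7. CCNA2, cyclin A2, was at 224 with ATO and 505 in the control, a ratio of 0.443, although its second probe set gave 0.944. ANLN, the scaffold of the cytokinetic ring, was at 324 in ATO-treated cells and 699 in control cells, with ratios of 0.463 and 0.555 from its probe sets, and TOP2A, the topoisomerase of dividing cells, at 1105 with ATO and 1890.4 in the control, with ratios of 0.584 and 0.682. TTK and NUSAP1, of the mitotic spindle, were the other two, at 0.651 and 0.661. Of 45 genes of DNA replication, 3 were lower, or 6.67% and near the share of all genes, and none was higher. Of the 45, 21 had a ratio above 1 and 24 below, and the median log2 ratio was -0.01. All 10 histone genes above the median had a ratio below 1 and 5 were below 0.67, with a median log2 ratio of -0.48 in Hep3B and 0.13 in Huh7. H1-2, a linker histone, was at 61.9 with ATO and 186 in the control, a ratio of 0.333, H2AC6 at 0.331, H2BC5, which is uncertain because its probe sets bind related histones, at 0.432, and H2BC12 at 0.596.

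Genes of growth arrest did not follow 1 direction. Of 21 above the median, 4 were higher and 7 lower. CDKN2B, which encodes the CDK4 inhibitor p15, was at 106 in ATO-treated cells and 53.8 in control cells, with a ratio of 1.98 in Hep3B and 1.21 in Huh7. The CDK inhibitor CDKN1B had 0.576 and 0.636, MDM2, which degrades p53, 0.590 and 0.858, and SESN1 0.565 and 0.636. Hep3B is known to lack functional p53. Of 15 circadian genes, 4 were lower, or 26.7% against 5.60%, and none was higher. CRY1, a repressor of the clock, was at 91.1 with ATO and 212 in the control in Hep3B and at 195 and 207 in Huh7, RORA, a clock receptor, had a ratio of 0.589, and PER2 and TEF, which were also near or past the lower threshold in Huh7, had 0.547 and 0.569.

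**Figure D5:**
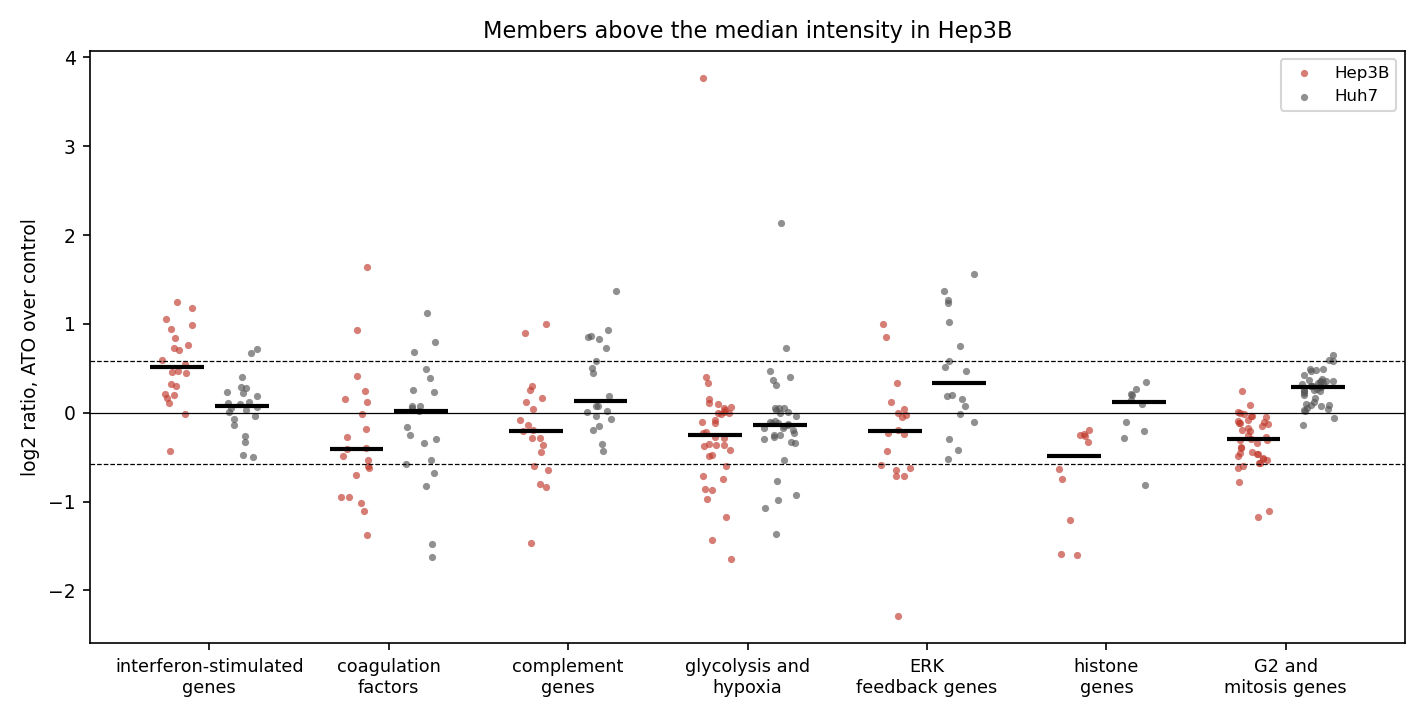
Log2 ratios, ATO to control, of the members of 7 gene lists above the median intensity in Hep3B, 1 point per gene, with Hep3B in red and Huh7 in grey. Short black bars are medians over members, such as -0.29 and 0.29 for genes of G2 and mitosis, and dashed lines mark ratios of 1.5 and 0.67.

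Lipid handling showed opposite ratios in related enzymes. ACSL1, which activates long-chain fatty acids, was at 155 with ATO and 59.1 in the control, a ratio of 2.62 with 1.97 from its second probe set, and at 35.2 and 33.5 in Huh7, whereas its relative ACSL4 was lower as given above. CD36, a fatty acid receptor, was at 76.1 in ATO-treated cells and 18.4 in control cells, with 4.15 and 4.55 from its probe sets. FABP1, the fatty acid carrier of hepatocytes, was at 678 with ATO and 2176 in the control, a ratio of 0.312. ACSL5 had 0.514 in Hep3B and 2.44 in Huh7, and ACSS2, which activates acetate, 1.72 and 0.893. Of 30 genes of fatty acid synthesis and oxidation, 3 were higher, or 10% against 6.61% of all genes above the median. Of the 30, 5 were lower, or 16.7% against 5.60%.

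Ribosomal protein and NF-kB genes stayed inside the thresholds in Hep3B. Of 33 cytosolic ribosomal proteins, 0 were past a threshold, with log2 ratios between -0.34 and 0.36, and of 15 NF-kB genes above the median 0 were, with log2 ratios between -0.42 and 0.42. Of 37 genes of the mitochondrial respiratory chain 2 were lower, or 5.41%, and 0 higher. Of 27 proteasome subunits 1 was higher, or 3.70%, and of 22 epithelial and junction genes 1 was higher, or 4.55%. The shares over all genes above the median were 6.61% higher and 5.60% lower. The proteasome subunits had a ratio above 1 in 23 of 27 cases with a median log2 ratio of 0.22. Of 14 BCL2 family genes, 4 were higher, where 6.61% of all genes above the median were, namely the pro-apoptotic BAD, BID and BOK and BCL2L13, with ratios between 1.52 and 1.65. The second probe sets of BAD, BID and BCL2L13 gave 1.35, 1.19 and 1.06, inside the thresholds, and 1 member was higher with the probe sets of a gene averaged, and 2 with median centring. Of 29 autophagy and lysosome genes, MAP1LC3B, CTSH and ATG4A were higher, which is 10.3% and near the share of all genes. ATG4A, a protease that processes ATG8 proteins, was at 156 with ATO and 87.5 in the control in Hep3B and at 364 and 391.6 in Huh7.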

How the data were processed

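RNA of 4 samples, ATO-treated and negative control cells of Hep3B and Huh7, was read on Affymetrix U133 Plus 2.0 arrays. The authors used Robust Multi-array Average on the raw data and then log-transformed and normalized the arrays with the R package simpleaffy, as their methods state. Each deposited value is a linear intensity of 1 probe set. How the log values became linear again is not given in the sources used here, nor is the number of arrays behind a column. Depth does not apply to arrays, and 1 deposited profile per condition and line limits the precision. The deposited intensities were used as they are, and ratios and counts were computed with Python 3.11.15, numpy 2.4.6 and pandas 2.3.3, and plots with matplotlib 3.10.9. In the platform annotation, 41097 of 54675 probe sets had 1 gene symbol, 1801 several and 11777 none, and 19735 of 19775 genes matched RefSeq by gene ID with no symbol changed. Genes whose probe sets all end in _x_at are given as uncertain.

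No test was run. The genes and the 74 lists, written from general knowledge, were chosen with earlier results of these data known. Chosen for naming were the 15 highest and 15 lowest ratios in Hep3B, the 20 highest and 20 lowest with little change in Huh7, and 4 members of each list with the largest ratio in either direction, all above the median. Some of these genes and lists are left out of the text. Other list members and the printed promoters were picked once their values were known. The calling of genes past a threshold in Hep3B with little change in Huh7 was also run on simulated arrays with known changes. These changes were large, in bright genes, with little noise and equal in all probe sets of a gene. The run thus checked the code, and not calls near a threshold, in dim genes or where probe sets differ. List counts, second probe sets and promoter matches were not checked this way. Alternatives covered the choice of probe set, scaling, the filter on dim genes, an offset of 16 and other thresholds. RT-qPCR, protein and animal data were not analysed here.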

Additional observations from a re-analysis of the deposited data

Results flagged for a closer look

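Some of the named genes were past a threshold in Hep3B and past the opposite threshold in Huh7, and this difference between the lines was not tested, since each line has 1 profile per condition. The largest was that of LOX, a collagen crosslinker, with a ratio of 0.295 in Hep3B and 2.69 in Huh7, a difference of log2 ratios of -3.19. FGA had 3.04 and 0.639, a difference of 2.25, and TUBA1A 2.04 and 0.567, a difference of 1.85. ACSL5, at 0.514 and 2.44, differed by -2.25, CCL20, at 0.502 and 2.28, by -2.18, and APOC3, at 0.547 and 2.22, by -2.02. The collagen receptor subunit ITGA2, at 0.627 and 2.03, differed by -1.70, CFI, at 0.562 and 1.78, by -1.66, and DUSP1, at 0.611 and 1.69, by -1.47, although its second probe set in Hep3B gave a ratio of 1.05.

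Among lists with at least 10 members above the median, the medians of some also lay on opposite sides of 0 in the 2 lines, by at least 0.1 (log2) in each, which was not tested either. The difference of medians, Hep3B minus Huh7, was -0.61 for histone genes, -0.59 for genes of G2 and mitosis, -0.54 for ERK feedback genes, -0.38 for collagens, laminins and crosslinkers, -0.33 for complement genes and -0.28 for apolipoproteins and lipoprotein assembly. It was 0.35 for urea cycle and arginine enzymes and 0.26 for tryptophan and branched-chain enzymes.

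Probe sets that name no gene or several genes entered no comparison above. Of 4522 such probe sets above the median in Hep3B, 234 had a ratio above 1.5, or 5.17%, and 359 a ratio below 0.67, or 7.94%.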

How the results depend on the processing

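The counts of higher and lower genes moved by over 1.5 times under a few of the alternatives. With the probe sets of a gene averaged, 423 genes were lower in Hep3B and 251 of the lower genes had little change in Huh7, where 370 and 193 of them were also lower with the brightest probe set. With thresholds of 2 and 0.5, 235 genes were higher and 165 lower, and 98 and 84 of them had little change in Huh7. With a range of 10% higher to 9% lower for little change in Huh7, 191 higher and 170 lower genes were left. With any second probe set, dim ones included, 23.9% of the higher and 29.1% of the lower ones with little change in Huh7 were past the threshold. Median centring gave 729 higher and 804 lower genes. Among the genes chosen for naming, 308 were past a threshold. Of these, 209 were past the same one with probe sets averaged, 276 with an offset of 16 and 295 with median centring.

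The counts within gene lists depended on the probe set more than on the scaling. Of 18 lists with at least 4 higher members, 6 had over 1.5 times fewer with the probe sets of a gene averaged, and of 19 lists with at least 4 lower members, 7 did. Beside those given in the report, the higher genes fell to 3 for metallothioneins and zinc transporters and to 2 for actin-binding genes, and the lower ones to 3 for growth arrest, to 3 for PI3K and insulin signaling, to 3 for fatty acid enzymes and to 2 for circadian genes. Without probe sets ending in _x_at or _s_at, 9 and 9 lists had over 1.5 times fewer, with fewer members measured, such as 8 higher of 13 for the stress response, 6 of 14 for interferon-stimulated genes, 3 of 13 for amino acid transporters and 5 lower of 21 for glycolysis and hypoxia. Median centring did so for 2 lists of higher genes and 0 of lower genes, an offset of 16 for 1 and 2, and quantile normalization for none.

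Without probe sets ending in _x_at or _s_at, the median log2 ratio of metallothioneins and zinc transporters was -0.23, over the 6 members left. The log2 ratio changed sign there for ANPEP (0.0133), BTN2A2 (-0.0239), DLK1 (0.43), DNAJB9 (-0.23), F11 (-0.13), FGFR2 (0.00936), HLA-DPB1 (-0.40), P4HA1 (0.40), SLC1A4 (-0.0768) and SLC38A4 (0.29). It also changed sign for PRRX1 (-0.0337) with the mean of probe sets and for DLL3 (0.48) with the brightest probe set in Hep3B alone, an alternative chosen after seeing the data. The cause was not tested. No paired analysis was possible because each condition has 1 profile per line, and no profile could be left out for the same reason.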

Other observations

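Genes of glucose release were among the higher ones in Hep3B with little or moderate change in Huh7. PCK2, the mitochondrial enzyme that makes phosphoenolpyruvate and a known ATF4 target, had an intensity of 569 in ATO-treated cells and 164 in control cells, a ratio of 3.47 in Hep3B and 1.31 in Huh7. PYGL, liver glycogen phosphorylase, was at 342 with ATO and 189 in the control. FBP1, a step of gluconeogenesis, was at 79.7 with ATO and 46.4 in the control. Both had little change in Huh7. Of 10 genes of this list above the median, 3 were higher, or 30% against 6.61% of all genes above the median, and none was lower. Among conjugating enzymes, SULT1E1, the estrogen sulfotransferase, had a ratio of 3.73 in Hep3B and 0.780 in Huh7, UGT2B15 2.22 and 1.13, and UGT2B4 0.573 and 0.970. TDO2, which starts tryptophan breakdown, was at 57.3 in ATO-treated cells and 26.4 in control cells in Hep3B and at 4.36 and 4.38 in Huh7.

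Among the TGF-beta and BMP genes, ID1 and ID3, transcription inhibitors that BMP signals induce, had ratios of 2.03 and 3.33 in Hep3B, with ID1 at 2054 with ATO and 1013 in the control. The receptor TGFBR1 had a ratio of 0.554, and SKIL, a feedback inhibitor of SMAD signals, had 0.496 in Hep3B and 1.49 in Huh7. Of 31 genes of the list, 3 were higher, or 9.68% against 6.61% of all genes above the median, and 5 lower, or 16.1% against 5.60%. Endoplasmic reticulum chaperones and sensors had 5 higher, or 23.8%, and 1 lower of 21, but 1 higher and 2 lower with the probe sets of a gene averaged. ATF6 and ERN1, sensors of unfolded proteins, had ratios of 1.82 and 1.62, which their second probe sets gave as 1.27 and 1.26, EDEM1, which sorts misfolded proteins for degradation, 1.69, and the chaperone HSP90B1 0.540. Among imprinted genes, PEG3 was at 254 with ATO and 853 in the control, and PLAGL1 had a ratio of 0.536. Of the genes that take up and methylate arsenic, 2 of 9 above the median were higher, or 22.2%, namely GSTO2 at 1.52 and ABCC2 at 1.64.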
